A study of Homo sapiens with 9 samples.

Results

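Transcripts of the spliceosome and of its regulators were followed in lung adenocarcinoma cells of the line NCI-H1993 after silencing of *TDRD9*, which encodes a Tudor-domain RNA helicase of the germline that this line also expresses. The 53 genes were chosen by name, with earlier results of these data known. They were 11 of the U2 snRNP and 3′ splice site recognition, 3 of the U1 snRNP and 7 Sm proteins. The others were 8 of the PRPF group with *SNRNP200*, 13 SR and SR-like proteins, and 11 hnRNPs with *PTBP1*. Of the 53, 52 had at least 1 probe set that the array annotation assigns to a single gene, among 18132 genes measured in this way. The exception was *U2AF1*, whose probe sets name another gene too.

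The spliceosome removes introns from nuclear transcripts. The U1 snRNP pairs with the 5′ splice site, U2AF and the U2 snRNP bind the polypyrimidine tract and the branch point, and the U4/U6.U5 tri-snRNP then joins and is rearranged into the catalytic form. Sm proteins form the ring that most spliceosomal snRNAs carry, while SR proteins and hnRNPs bind exons and introns and shift the choice of splice sites. Transcripts of many SR proteins and hnRNPs are themselves spliced in several ways.

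All cultures were of this 1 cell line, transfected with an siRNA for 72 h: 3 with siTDRD9-1, 3 with siTDRD9-2, which targets another sequence of the same transcript, and 3 with siControl. Total RNA of each culture was hybridized to 1 PrimeView array, and the deposited values are log2 signals made with RMA, so that a difference of 1 is 2-fold. The titles call the cultures biological replicates, and both comparisons against siControl use the same 3 siControl arrays. A probe set is a group of short probes for 1 transcript or several. Its name ends in _at or _a_at when it is meant to be specific for 1 gene. The ending is _s_at when probes are shared between transcripts, and _x_at when some may bind other transcripts. The annotation can still name several genes for an _at probe set, as for 11757030_at below.

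The *TDRD9* probe set averaged 4.62 ± 0.33 with siTDRD9-1, 6.10 ± 0.038 with siTDRD9-2 and 6.80 ± 0.14 with siControl (SD, n = 3 each). All 7 epithelial markers gave means over the arrays of 9.90 (*CLDN4*) to 13.35 (*KRT18*). The 5 fibroblast markers gave 2.53 (*COL3A1*) to 5.74 (*COL1A1*), the 3 endothelial ones 4.43 (*CDH5*) to 5.18 (*VWF*), and 3 of the 4 immune ones measured 2.82 (*LYZ*), 3.58 (*PTPRC*) and 4.80 (*CD3E*), the exception being *CD68*. Of these 19 genes, *CD68* and *CDH5* passed an FDR of 0.01 (limma), both with siTDRD9-2. *CD68*, for a lysosomal protein used as a macrophage marker, averaged 9.40 with siTDRD9-1, 8.39 with siTDRD9-2 and 9.23 with siControl, and fell by 0.84 with siTDRD9-2 (adjusted p = 0.00115), which also differed from siTDRD9-1 by -1.01 (adjusted p = 0.000989). *CDH5*, an endothelial cadherin gene, rose by 0.72 with siTDRD9-2 (adjusted p = 0.00848) and differed by 0.57 with siTDRD9-1 (adjusted p = 0.0303). *COL1A1* differed by 0.48 with siTDRD9-1 (adjusted p = 0.0121). The part of these in the results below was not tested. Control probe sets separated the siControl arrays from the others. The mean of 12 bacterial poly-A spike-in probe sets was 7.68 with siTDRD9-1, 7.76 with siTDRD9-2 and 8.47 with siControl, and the 3′ end of 18S rRNA gave 13.41, 13.42 and 11.93 in that order of groups (exact permutation test, two-sided, 6 arrays against 3, p = 0.0119 for both, the smallest possible). The 3′ probe set of *GAPDH* differed from the 5′ one by -0.085 with siTDRD9-1, -0.10 with siTDRD9-2 and 0.14 with siControl (p = 0.0119, exact permutation test). All these values follow the siRNA groups, so that their part in any difference from siControl described below cannot be told apart from that of the siRNA. In such bulk RNA, fewer cells of a kind and less RNA per cell cannot be told apart.

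In their median, the splicing genes stayed near siControl levels when each was read from its brightest probe set, whose mean over the 9 arrays was highest. None of the 52 genes passed an FDR of 0.01 with siTDRD9-1 (limma), where 4.05% of all genes did. At an unadjusted p under 0.05, 1 was higher and 11 were lower, against 6.99% and 16% of all genes. With siTDRD9-2, *PRPF6* rose and *SRSF6* fell, 2 of 52 genes, where 4.35% of all genes passed (1.32% higher and 3.03% lower), and 8 genes were higher and 6 lower at an unadjusted p under 0.05 (7.5% and 16% of all genes). The median log2 difference was -0.072 with siTDRD9-1 and -0.011 with siTDRD9-2, beside -0.026 and -0.056 over all genes. The difference was above 0 for 17 genes with siTDRD9-1 and 25 with siTDRD9-2, where 44% and 36.9% of all genes were above 0. With siTDRD9-1, every culture lay above every siControl culture for 3 genes and below for 17 (5.77% and 32.7%, beside 8.76% and 18.9% of all genes). With siTDRD9-2 these counts were 9 and 9 (17.3% each, beside 9.57% and 20.2% of all genes).

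**Figure D1:**
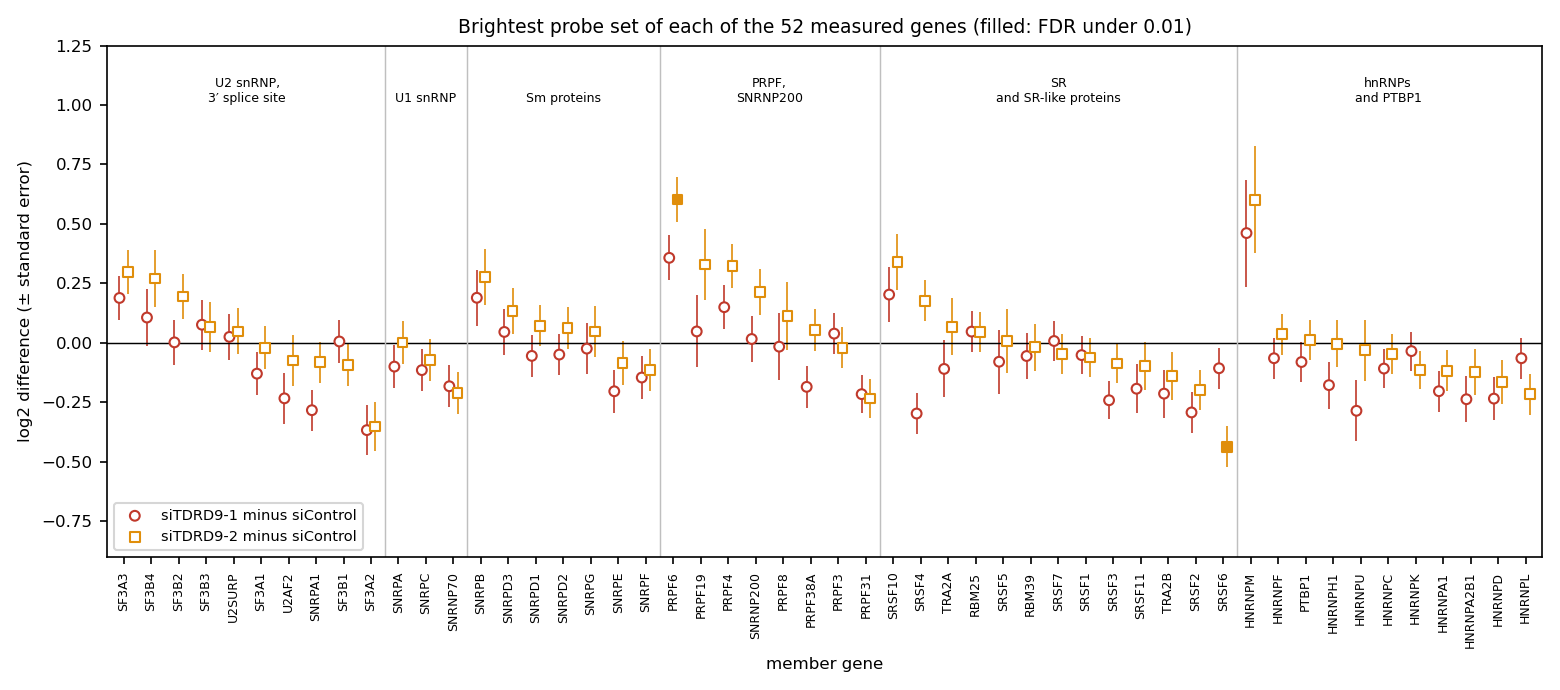
Log2 difference from siControl at the brightest probe set of each of the 52 measured splicing genes, by class, for siTDRD9-1 (circles) and siTDRD9-2 (squares), 3 arrays per group, with standard errors from limma. Filled symbols passed an FDR of 0.01, which only *PRPF6* and *SRSF6* did, both with siTDRD9-2.

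Over all 213 single-gene probe sets of the 52 genes, 4 rose and 3 fell with siTDRD9-1 at an FDR of 0.01 (2.38% and 2.22% of all single-gene probe sets, 4.6% in all). With siTDRD9-2, 9 rose and 6 fell (2.94% and 2.28%, 5.22% in all). With a change of at least 2-fold as well, 3 were higher with siTDRD9-1 and 4 with siTDRD9-2 (0.482% and 0.605% of all), and none was lower (0.718% and 0.816% of all were called in either direction). The genes with such a probe set for both siRNAs were *SF3B1* and *U2SURP*, 2 of 52 (3.85%), where 0.689% of all genes had one. At an FDR of 0.05 and 1.5-fold, *HNRNPU* and *SRSF11* were added, and 4 genes made 7.69%, beside 3.54% of all. The splicing genes were chosen with earlier results of these data known, so these shares are a description. A gene with more probe sets also has more chances of a call. The 52 genes had 213 single-gene probe sets, and all 18132 genes had 44988. *SF3B1* and *U2SURP* encode proteins of the U2 snRNP. Between the siRNAs, 1 probe set of 213 passed (1.95% of all), that of *SRSF4*, and none was called at 2-fold (0.316%).

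**Figure D2:**
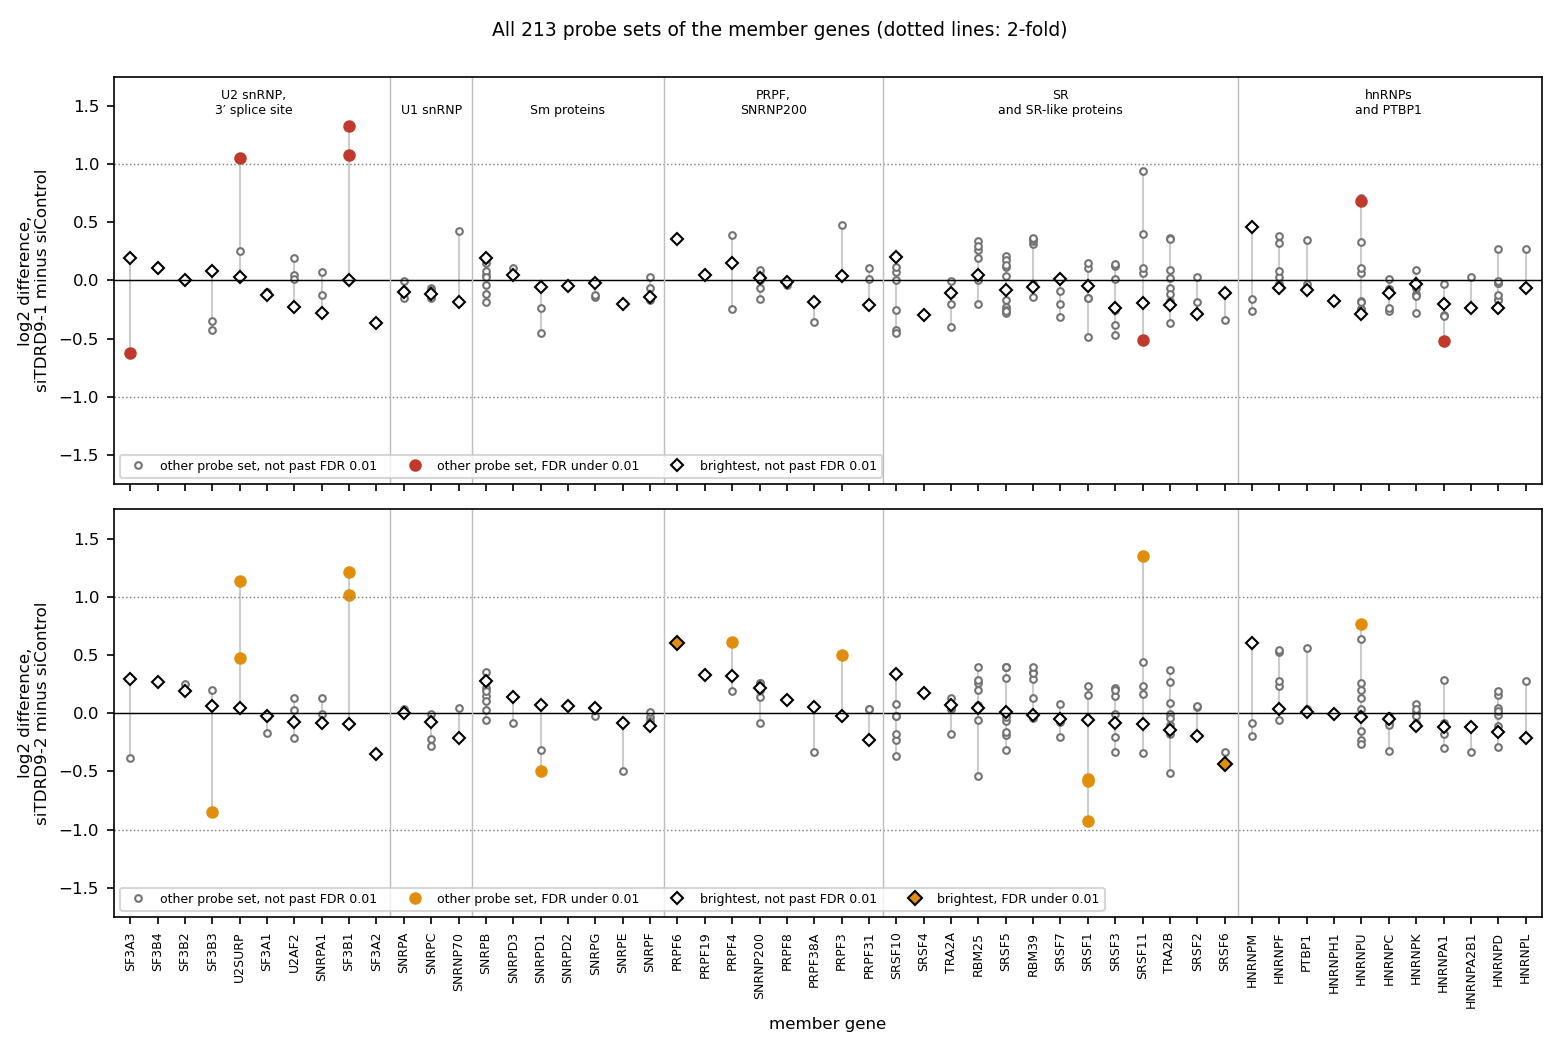
Log2 difference from siControl of all 213 single-gene probe sets, 1 column per gene in the order of classes, with siTDRD9-1 in the upper and siTDRD9-2 in the lower panel. Diamonds are the brightest probe set of a gene, filled symbols passed an FDR of 0.01, and the grey lines join the probe sets of 1 gene. *SF3B1* and *U2SURP* have points above the 2-fold line in both panels while their diamonds lie near 0.

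*SF3B1* encodes the largest subunit of SF3b, which holds the branch point in the U2 snRNP and is a frequent target of mutation in blood cancers and uveal melanoma. At 11716085_at its signal was 8.77, 8.71 and 8.88 with siTDRD9-1, 8.69, 8.92 and 8.57 with siTDRD9-2, and 7.87, 7.76 and 7.52 with siControl. All 6 siTDRD9 cultures lay above all 3 siControl cultures. The log2 difference was 1.07 with siTDRD9-1 (standard error 0.119, adjusted p = 0.000298) and 1.01 with siTDRD9-2 (standard error 0.119, adjusted p = 0.000365), or 2.10-fold and 2.02-fold. Under the alternatives listed below it ran from 0.98 to 1.15 with siTDRD9-1 and from 0.92 to 1.09 with siTDRD9-2. This probe set thus did not always reach 2-fold.

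The second *SF3B1* probe set that rose, 11745835_a_at, gave 7.87, 7.69 and 7.92 with siTDRD9-1, 7.77, 8.01 and 7.38 with siTDRD9-2, and 6.83, 6.55 and 6.13 with siControl. The groups again did not overlap with siControl, and the siControl cultures were the more spread ones (SD 0.353). The differences were 1.33 and 1.22 (standard error 0.183 for both), with adjusted p of 0.00109 and 0.0016. The brightest one, 11716084_at, did not pass the test. It gave 10.53, 10.72 and 10.52 with siTDRD9-1, 10.54, 10.46 and 10.46 with siTDRD9-2, and 10.52, 10.60 and 10.63 with siControl, and the groups overlapped. Its differences were 0.0059 (standard error 0.0884) and -0.094 (standard error 0.0884).

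*U2SURP* encodes SR140, an SR-related protein with a SURP domain that associates with the U2 snRNP. At 11747164_a_at the signal was 8.21, 8.04 and 8.05 with siTDRD9-1, 8.04, 8.19 and 8.32 with siTDRD9-2, and 7.38, 6.87 and 6.90 with siControl. Every siTDRD9 culture was above the highest siControl culture. The difference was 1.05 with siTDRD9-1 and 1.14 with siTDRD9-2 (standard error 0.137 for both, adjusted p = 0.000794 and 0.000433). With siTDRD9-1 it lay just above 2-fold, and it was 0.99, 0.96 and 0.97 when siTDRD9-1 replicate 1, siControl replicate 2 or siControl replicate 3 was left out, so that 1 gene in place of 2 was then called with both siRNAs.

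*U2SURP* had 2 other probe sets. At 11747485_a_at the cultures gave 8.51, 8.50 and 8.41 with siTDRD9-1, 8.60, 8.69 and 8.78 with siTDRD9-2, and 8.18, 8.17 and 8.30 with siControl, which again did not overlap. Only the siTDRD9-2 difference passed, with 0.47 (standard error 0.088, adjusted p = 0.00533, and 0.012 when the replicate number was a block), and with siTDRD9-1 it was 0.25 (adjusted p = 0.0956). The brightest one, 11743562_a_at, gave 8.86, 8.94 and 8.88 with siTDRD9-1, 8.94, 8.92 and 8.90 with siTDRD9-2, and 8.72, 8.84 and 9.05 with siControl. These groups overlapped, and the differences were 0.025 and 0.048 (standard error 0.0968 for both).

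**Figure D3:**
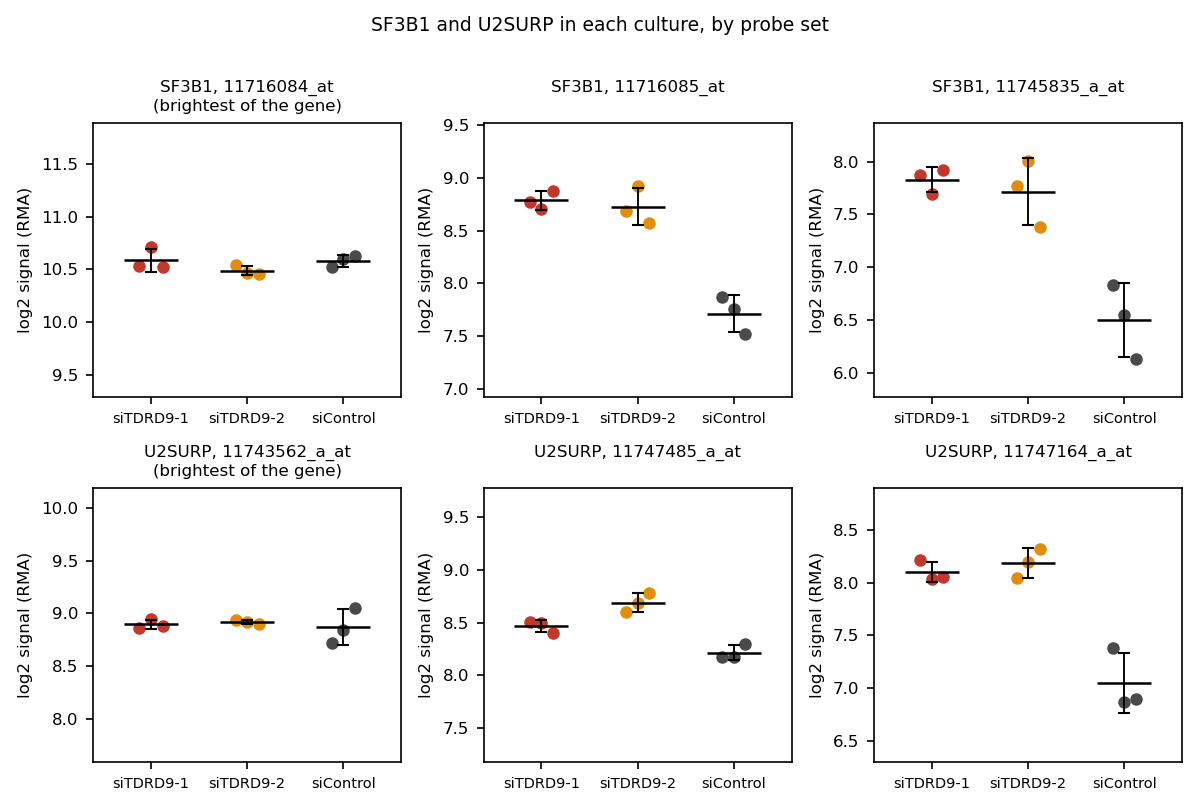
Log2 signal of the 3 *SF3B1* (upper row) and 3 *U2SURP* probe sets (lower row) in each culture with siTDRD9-1, siTDRD9-2 and siControl. Points are cultures, lines the group means and bars the SD (n = 3), and every panel spans the same number of log2 units. The brightest probe sets on the left are level across groups, while 11716085_at, 11745835_a_at and 11747164_a_at are at least 1 log2 unit higher on average with either siRNA.

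The promoters of *SF3B1* and *U2SURP* are shown because these were the genes called with both siRNAs. They are the 250 bases before the transcription start in RefSeq (GRCh38.p14), where 46 of the 53 genes were matched by symbol and the first listed start was used. *SF3B1* lies on the minus strand of chromosome 2, with this window at chr2:197435029-197435278, and *U2SURP* on the plus strand of chromosome 3, with this window at chr3:143001320-143001569. Capitals mark the matches to 5 motifs searched on both strands. They were the E-box CACGTG, the ETS core CCGGAAG, the CCAAT box, the GC box GGGCGG and the TATA box TATAAA.
SF3B1: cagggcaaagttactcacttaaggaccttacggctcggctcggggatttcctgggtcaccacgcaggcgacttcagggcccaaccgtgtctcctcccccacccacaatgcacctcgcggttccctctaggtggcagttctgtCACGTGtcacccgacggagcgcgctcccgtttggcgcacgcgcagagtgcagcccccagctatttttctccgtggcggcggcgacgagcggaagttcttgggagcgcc
U2SURP: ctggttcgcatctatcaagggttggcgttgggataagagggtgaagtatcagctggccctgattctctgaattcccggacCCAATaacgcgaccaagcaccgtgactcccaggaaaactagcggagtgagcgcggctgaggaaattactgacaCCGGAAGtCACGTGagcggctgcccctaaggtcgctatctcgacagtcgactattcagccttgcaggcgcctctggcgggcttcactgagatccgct
Both windows hold CACGTG, which starts 108 bases before the start of *SF3B1* and 89 bases before that of *U2SURP*. In *U2SURP* it stands 1 base after CCGGAAG, without overlap. Among the 46 genes matched, 4 held CACGTG (8.7%), *HNRNPD* and *HNRNPM* besides these, beside 6.49% of 27305 genes in the table, non-coding ones included. CCGGAAG was in 19 of the 46 (41.3%, and 8.82% of all), CCAAT in 17 (37%, and 33% of all), GGGCGG in 27 (58.7%, and 42.3% of all) and TATAAA in 5 (10.9%, and 11.1% of all).

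The other genes of the U2 snRNP were measured by 25 probe sets together with *SF3B1* and *U2SURP*, over 10 genes. At the brightest probe set, their differences ran between -0.37 and 0.19 with siTDRD9-1 and between -0.35 and 0.30 with siTDRD9-2. None of the 10 passed, where 4.05% of all genes did with siTDRD9-1 and 4.35% with siTDRD9-2. The largest mean difference was that of *SF3A2*, a subunit of SF3a, which works beside SF3b in the U2 snRNP. Its only single-gene probe set, 11721811_x_at, gave 8.03, 7.92 and 8.15 with siTDRD9-1, 8.10, 7.96 and 8.09 with siTDRD9-2, and 8.22, 8.51 and 8.46 with siControl. All siTDRD9 cultures were lower than all siControl cultures, at -0.37 and -0.35 on average (standard error 0.105 for both), and the adjusted p of 0.0457 and 0.0491 did not pass 0.01.

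*SF3A3*, which encodes the third SF3a subunit, had 2 probe sets of opposite sign. At 11718112_at the signal was 8.89, 8.79 and 8.91 with siTDRD9-1, 9.14, 9.08 and 9.09 with siTDRD9-2, and 9.42, 9.54 and 9.50 with siControl. It fell by 0.63 with siTDRD9-1 (standard error 0.0827, adjusted p = 0.000837), and the difference of -0.38 with siTDRD9-2 had an adjusted p of 0.0114. The brightest, 11718113_a_at, was 0.19 higher with siTDRD9-1 and 0.30 higher with siTDRD9-2, without overlap with siControl (adjusted p = 0.241 and 0.0542). In *SF3B3*, which encodes a scaffold subunit of SF3b, 11722175_a_at gave 6.50, 6.75 and 6.53 with siTDRD9-1, 5.97, 6.13 and 6.17 with siTDRD9-2, and 6.60, 6.98 and 7.23 with siControl. It fell by 0.85 with siTDRD9-2 (standard error 0.144, adjusted p = 0.00313), and the difference with siTDRD9-1 was -0.35 (adjusted p = 0.167), where the cultures overlapped. The brightest of *SF3B3* differed by 0.076 and 0.066. *SF3B2*, *SF3B4*, *SF3A1*, the U2 protein gene *SNRPA1* and *U2AF2*, whose product binds the polypyrimidine tract, had no probe set past an FDR of 0.01. The 2 probe sets that *U2AF1*, for the subunit that reads the AG of the 3′ splice site, shares with LOC102724594 differed by 0.024 and -0.0079 with siTDRD9-1 and by 0.16 and 0.13 with siTDRD9-2.

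The 3 genes of the U1 snRNP had 11 probe sets, and none passed with either siRNA (4.6% and 5.22% of all single-gene probe sets did). *SNRNP70*, for a protein that binds U1 RNA, had the largest mean difference at the brightest probe set, and its product with those of *SNRPA* and *SNRPC* makes the U1 particle that reads the 5′ splice site. At 11754463_a_at *SNRNP70* gave 10.10, 9.98 and 10.10 with siTDRD9-1, 9.91, 10.09 and 10.10 with siTDRD9-2, and 10.21, 10.28 and 10.24 with siControl. Both siRNA groups lay wholly below siControl, at -0.18 and -0.21 (standard error 0.0889 for both, adjusted p = 0.247 and 0.162). A second probe set of *SNRNP70*, 11755283_a_at, held the same values on every array and is not a separate measurement. The remaining one, 11759421_at, had the opposite sign, at 0.42 with siTDRD9-1 and 0.045 with siTDRD9-2.

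Of the 25 probe sets of the 7 Sm protein genes, none passed with siTDRD9-1 and 1 with siTDRD9-2 (4.6% and 5.22% of all single-gene probe sets). It was 11724204_s_at of *SNRPD1*, a core protein of the ring, with 10.17, 10.26 and 10.18 with siTDRD9-1, 10.26, 10.01 and 10.23 with siTDRD9-2, and 10.58, 10.62 and 10.78 with siControl. It fell by 0.49 with siTDRD9-2 (standard error 0.098, adjusted p = 0.00759, and 0.0141 with this block), and with siTDRD9-1 the difference was -0.45 (adjusted p = 0.0128), both without overlap with siControl. The brightest of *SNRPD1* differed by -0.055 and 0.072. At the brightest probe set the largest mean difference was that of *SNRPB*, which gives SmB and SmB′ by alternative splicing, and its 11736675_a_at gave 11.46, 11.54 and 11.33 with siTDRD9-1, 11.56, 11.69 and 11.34 with siTDRD9-2, and 11.41, 11.09 and 11.26 with siControl. These overlapped, at 0.19 and 0.28 (adjusted p = 0.382 and 0.164).

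Among the 8 genes of the PRPF group, 3 of 20 probe sets rose with siTDRD9-2, where 2.94% of all single-gene probe sets did. None passed with siTDRD9-1, where 4.6% of all did. The 3 were 1 each in *PRPF3*, *PRPF4* and *PRPF6*. Their products belong to the tri-snRNP, those of *PRPF3* and *PRPF4* to its U4/U6 part and that of *PRPF6* to its U5 part. *PRPF6* had a single probe set, 11744203_a_at, with 9.16, 9.15 and 9.14 for siTDRD9-1, 9.34, 9.39 and 9.46 for siTDRD9-2, and 8.95, 8.65 and 8.78 for siControl. The 3 groups did not overlap. The difference was 0.60 with siTDRD9-2 (standard error 0.095, adjusted p = 0.00207) and 0.36 with siTDRD9-1 (adjusted p = 0.034), and the siRNAs did not differ at 0.01 (0.25 with siTDRD9-2 over siTDRD9-1, adjusted p = 0.169).

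*PRPF4* at 11729595_x_at gave 9.30, 9.23 and 9.34 with siTDRD9-1, 9.56, 9.54 and 9.44 with siTDRD9-2, and 8.97, 8.96 and 8.76 with siControl. These groups did not overlap either, and the rise was 0.61 with siTDRD9-2 (standard error 0.0914, adjusted p = 0.00147), beside 0.39 with siTDRD9-1 (adjusted p = 0.0189). The brightest of *PRPF4*, 11729594_s_at, differed by 0.32 with siTDRD9-2 and 0.15 with siTDRD9-1. At 11759011_at the differences were 0.19 with siTDRD9-2 and -0.25 with siTDRD9-1. *PRPF3* at 11747443_a_at gave 8.12, 8.25 and 8.18 with siTDRD9-1, 8.11, 8.31 and 8.20 with siTDRD9-2, and 7.89, 7.57 and 7.66 with siControl. Its difference was 0.50 with siTDRD9-2 (standard error 0.104, adjusted p = 0.00915, and 0.0195 with the block) and 0.48 with siTDRD9-1 (adjusted p = 0.0132), while its brightest probe set differed by -0.021 and 0.039 with siTDRD9-2 and siTDRD9-1. *PRPF8*, for the protein at the catalytic centre, *SNRNP200*, for the helicase that unwinds U4 from U6, *PRPF19*, for a ubiquitin ligase, *PRPF31* and *PRPF38A* had no probe set past 0.01. The median over the 8 brightest probe sets was 0.028 with siTDRD9-1 and 0.16 with siTDRD9-2, beside -0.026 and -0.056 over all genes.

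The 13 SR and SR-like genes had 78 probe sets. Of these, 1 passed with siTDRD9-1 and 5 with siTDRD9-2 (4.6% and 5.22% of all single-gene probe sets). *SRSF1*, for the splicing factor also known as SF2/ASF, accounted for 3 of the 4 that fell with siTDRD9-2. At 11758600_s_at it gave 7.27, 7.41 and 7.10 with siTDRD9-1, 7.05, 6.70 and 6.73 with siTDRD9-2, and 7.57, 7.80 and 7.87 with siControl. No culture of either siRNA reached the siControl range, and the signal fell by 0.92 with siTDRD9-2 (standard error 0.126, adjusted p = 0.000895), with a difference of -0.49 with siTDRD9-1 (adjusted p = 0.0293).

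At 11727813_a_at *SRSF1* gave 8.20, 8.27 and 8.19 with siTDRD9-1, 7.84, 7.81 and 7.77 with siTDRD9-2, and 8.25, 8.41 and 8.45 with siControl. The siTDRD9-2 cultures stood apart here, and the signal fell by 0.56 (standard error 0.0868, adjusted p = 0.0018), whereas the siTDRD9-1 cultures overlapped siControl at -0.15 (adjusted p = 0.335). The third, 11743269_a_at, gave 7.50, 7.58 and 7.50 with siTDRD9-1, 7.27, 7.07 and 6.95 with siTDRD9-2, and 7.58, 7.70 and 7.76 with siControl, and fell by 0.58 with siTDRD9-2 (adjusted p = 0.00313). Set directly against siTDRD9-1, the siTDRD9-2 values of these 3 were lower by -0.43, -0.41 and -0.43, with adjusted p of 0.07, 0.0178 and 0.0266. The brightest, 11727812_s_at, averaged 11.80 with siTDRD9-1, 11.79 with siTDRD9-2 and 11.85 with siControl. The remaining probe sets of *SRSF1*, 11727811_a_at and 11747684_a_at, differed in the other direction and did not pass. Their differences were 0.15 and 0.11 with siTDRD9-1, and 0.23 and 0.16 with siTDRD9-2.

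*SRSF11*, for an arginine-rich protein also called p54, had probe sets past 0.01 in both directions. At 11761781_a_at it gave 5.25, 4.71 and 5.17 with siTDRD9-1, 5.34, 5.51 and 5.53 with siTDRD9-2, and 4.50, 4.20 and 3.63 with siControl. The siTDRD9 cultures were all above siControl, and the signal rose by 1.35 with siTDRD9-2 (standard error 0.201, adjusted p = 0.00147), beside 0.94 with siTDRD9-1 (adjusted p = 0.0122), on a dim probe set with an SD of 0.445 among siControl cultures. At 11763263_at the gene gave 7.68, 7.72 and 7.71 with siTDRD9-1, 7.89, 7.89 and 7.84 with siTDRD9-2, and 8.10, 8.29 and 8.26 with siControl. Here all siTDRD9 cultures were lower, and the signal fell by 0.51 with siTDRD9-1 (standard error 0.0848, adjusted p = 0.00306), with a difference of -0.34 with siTDRD9-2 (adjusted p = 0.0231). The brightest of *SRSF11* differed by -0.19 and -0.10.

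*SRSF6*, for an SR protein also known as SRp55, fell at its brightest probe set, 11716303_s_at, with siTDRD9-2. It gave 9.98, 9.94 and 10.07 with siTDRD9-1, 9.73, 9.58 and 9.68 with siTDRD9-2, and 10.06, 10.08 and 10.17 with siControl. Only the siTDRD9-2 cultures lay apart from siControl, at -0.44 (standard error 0.0857, adjusted p = 0.00711, and 0.0127 with the block), and the siTDRD9-1 difference was -0.11 (adjusted p = 0.527). *SRSF10*, also for an SR protein, had the largest mean difference of the class at the brightest probe set. At 11718505_s_at it gave 9.89, 9.84 and 9.77 with siTDRD9-1, 9.82, 9.99 and 10.09 with siTDRD9-2, and 9.87, 9.47 and 9.54 with siControl, which overlapped, at 0.20 and 0.34 (adjusted p = 0.343 and 0.0855).

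*SRSF4*, for the SR protein SRp75, was the gene whose level differed between the siRNAs. Its single probe set, 11717838_a_at, read 8.78, 8.76 and 8.94 with siTDRD9-2, against 8.38, 8.41 and 8.27 with siTDRD9-1. The siControl cultures lay between both, at 8.65, 8.66 and 8.65. The siTDRD9-2 cultures were higher than the siTDRD9-1 cultures by 0.47 (standard error 0.0868, adjusted p = 0.00913), and adjusted p was 0.016 to 0.0368 when any 1 array was left out and 0.0213 with the block. Against siControl the differences were -0.30 with siTDRD9-1 (adjusted p = 0.0502) and 0.18 with siTDRD9-2 (adjusted p = 0.23). *SRSF2*, *SRSF3*, *SRSF5*, *SRSF7*, the Transformer-2 homologues *TRA2A* and *TRA2B*, and *RBM25* and *RBM39* had no probe set past 0.01 in any comparison. Their brightest probe sets ranged between -0.29 (*SRSF2*) and 0.047 (*RBM25*) with siTDRD9-1 and between -0.20 (*SRSF2*) and 0.068 (*TRA2A*) with siTDRD9-2.

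The 11 genes of hnRNPs and *PTBP1* had 54 probe sets. Of these, 2 passed with siTDRD9-1 and 1 with siTDRD9-2 (4.6% and 5.22% of all single-gene probe sets). *HNRNPU*, for a large nuclear protein of the hnRNP complex that also binds DNA, rose with both at 1 of its 10 probe sets. Its 11763725_a_at gave 10.94, 10.83 and 11.10 with siTDRD9-1, 11.06, 11.21 and 10.85 with siTDRD9-2, and 10.42, 10.17 and 10.22 with siControl. All 6 siTDRD9 cultures were above siControl, by 0.68 with siTDRD9-1 (standard error 0.117, adjusted p = 0.00388) and 0.77 with siTDRD9-2 (standard error 0.117, adjusted p = 0.00177), which is 1.61-fold and 1.70-fold. The brightest of its 10 probe sets, 11721999_s_at, gave 10.85, 11.26 and 11.10 with siTDRD9-1, 11.36, 11.30 and 11.31 with siTDRD9-2, and 11.26, 11.20 and 11.61 with siControl, which overlapped, at -0.29 (adjusted p = 0.205) and -0.031 (adjusted p = 0.917). Of the 10, 5 had a difference above 0 with siTDRD9-1 and 6 with siTDRD9-2.

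*HNRNPA1*, for the most studied repressor among hnRNPs, fell with siTDRD9-1 at 1 of its 5 probe sets, 11758811_x_at. It gave 10.32, 10.13 and 10.29 with siTDRD9-1, 10.65, 10.31 and 10.43 with siTDRD9-2, and 10.74, 10.73 and 10.82 with siControl. The fall of 0.52 with siTDRD9-1 had an adjusted p of 0.0088 (standard error 0.104), which was 0.016 after cyclic loess scaling, and the difference with siTDRD9-2 was -0.30 (adjusted p = 0.0885). *HNRNPA1* has many processed pseudogenes, and probe sets of this _x_at kind may not separate it from them. *HNRNPM* had the largest mean difference of the class at its brightest probe set, 11761516_x_at, with 12.27, 11.61 and 12.62 for siTDRD9-1, 12.16, 12.09 and 12.67 for siTDRD9-2, and 11.80, 11.79 and 11.52 for siControl. The siTDRD9-1 cultures were spread over 1 log2 unit and overlapped siControl, at 0.46 (standard error 0.225, adjusted p = 0.247), and siTDRD9-2 lay above siControl at 0.60 (adjusted p = 0.112). *HNRNPA2B1*, *HNRNPC*, *HNRNPD*, *HNRNPF*, *HNRNPH1*, *HNRNPK*, *HNRNPL* and *PTBP1*, for the polypyrimidine tract binding protein, had no probe set past 0.01. The brightest ones of these 8 genes lay between -0.24 and -0.035 with siTDRD9-1 and between -0.22 and 0.037 with siTDRD9-2.

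**Figure D4:**
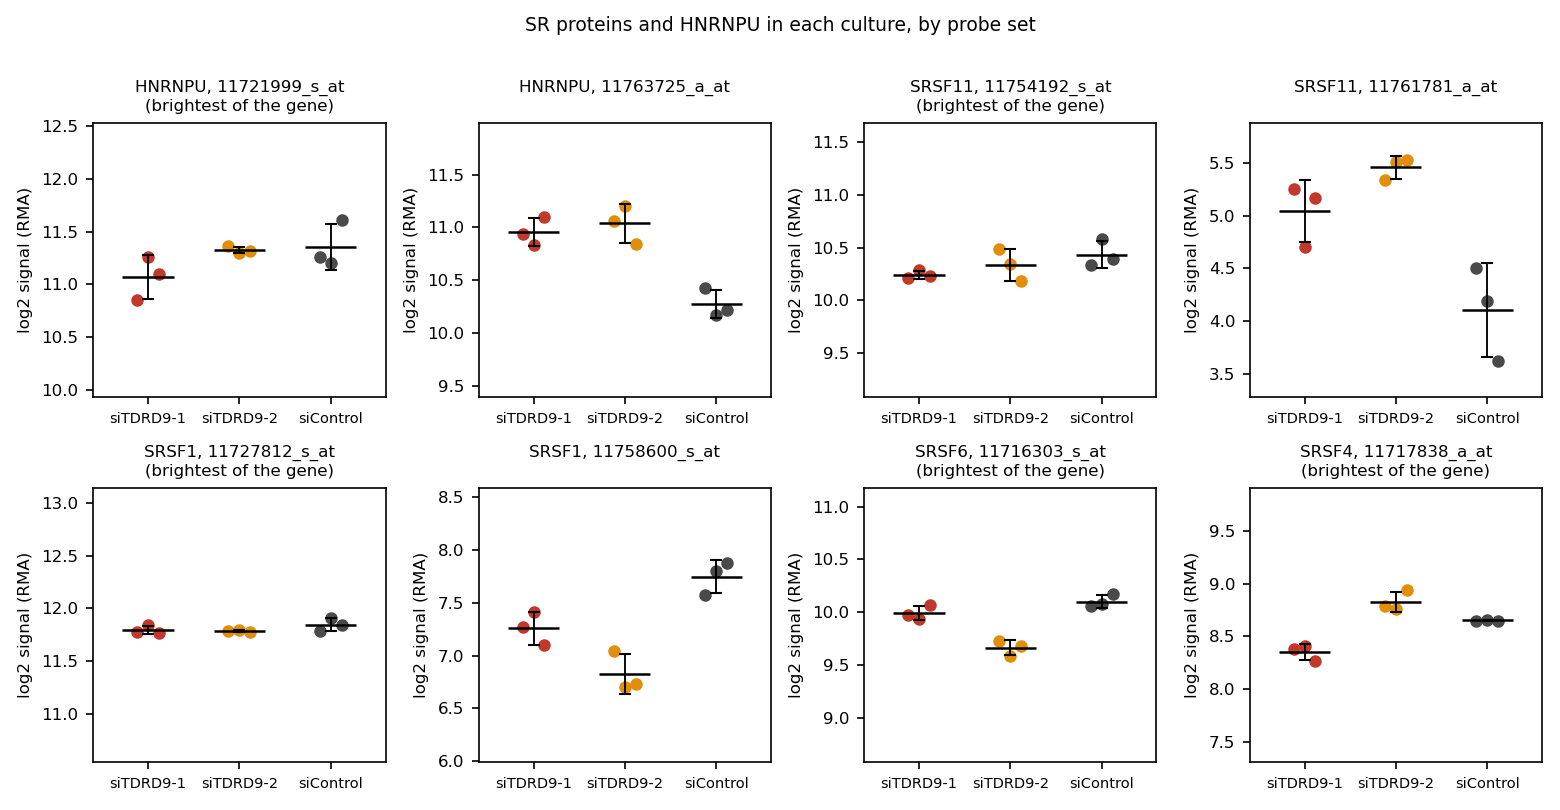
Log2 signal in each culture with siTDRD9-1, siTDRD9-2 and siControl at 8 probe sets of *HNRNPU* and SR protein genes. Points are cultures, lines the group means and bars the SD (n = 3), and every panel spans the same number of log2 units. For *HNRNPU*, *SRSF11* and *SRSF1*, the brightest probe set stands beside the other one with the largest absolute siTDRD9-2 difference. Of those picked in this way, *HNRNPU* 11763725_a_at and *SRSF11* 11761781_a_at are higher with either siRNA, and *SRSF1* 11758600_s_at is lower. With siTDRD9-1 the *SRSF11* and *SRSF1* differences did not pass 0.01 (limma adjusted p = 0.0122 and 0.0293). No difference passed an FDR of 0.01 at the brightest probe sets of *HNRNPU*, *SRSF11* and *SRSF1*. *SRSF6* passed with siTDRD9-2 at its brightest, and *SRSF4* passed between the siRNAs at its single probe set.

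Since the probe sets of 1 gene often differed, each was set against the brightest of its gene on the same array, so that a shift shared by both cancels. This comparison was chosen after the values were seen. Of 160 such differences in 45 genes, 4 passed an FDR of 0.01 with siTDRD9-1 (3.15% of 26827 over all genes did). They were both of *SF3B1*, at 1.07 (adjusted p = 0.00299) and 1.32 (adjusted p = 0.00617), that of *HNRNPU* at 0.97 (adjusted p = 0.00966), and that of *SF3A3* at -0.82 (adjusted p = 0.0018). With siTDRD9-2, 8 passed (2.85% over all genes). These were *SF3B1* at 1.11 and 1.31, *U2SURP* 11747164_a_at at 1.09 (adjusted p = 0.00854), *SRSF11* 11761781_a_at at 1.45 (adjusted p = 0.00691), *SF3B3* at -0.91 (adjusted p = 0.00392), *SF3A3* at -0.68 (adjusted p = 0.00393), and *SRSF1* at -0.50 and -0.86. None passed between the siRNAs, where 0.116% over all genes did. The counts were 0 with both siRNAs without siControl replicate 2, and with siTDRD9-2 also without siControl replicate 3 or siTDRD9-2 replicate 2. Probe sets are not replicates of a gene, and which exons or ends they cover is not given in the sources used here.

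The siRNAs were also set against each other over all members. At the brightest probe set, 41 of 52 genes were higher with siTDRD9-2 than with siTDRD9-1 (45.2% of all genes were), with a median difference of 0.095, beside -0.024 over all genes. By class this held for 8 of 10 genes of the U2 group, 2 of 3 of U1, 7 of 7 Sm protein genes, 6 of 8 of the PRPF group, 9 of 13 SR genes and 9 of 11 hnRNP genes. Of 116 other splicing genes, described below, 77 were also higher with siTDRD9-2, with a median difference of 0.081. Medians against siControl moved with the scaling, as given below. The differences of the 52 genes were small. The largest rise was that of *SRSF4* and the largest fall that of *SRSF6*, at -0.33 (adjusted p = 0.0456), and 4 genes were higher and 1 lower at an unadjusted p under 0.05 (10.3% and 11% of all genes).

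Beyond the 53 genes, 124 other splicing genes were listed, of which 116 were measured, by 389 single-gene probe sets. Those called with both siRNAs at 2-fold and an FDR of 0.01 were *BCLAF1*, for an SR-related protein also linked to cell death, and *MBNL1*, for a regulator of alternative splicing that is sequestered in myotonic dystrophy. At 11728219_a_at *BCLAF1* gave 10.84, 10.68 and 10.78 with siTDRD9-1, 10.67, 10.74 and 10.74 with siTDRD9-2, and 9.21, 9.40 and 9.10 with siControl. The groups were over 1 log2 unit apart, at 1.53 and 1.48 (standard error 0.0971 for both, adjusted p = 1.8e-05 and 2.1e-05), while its brightest probe set, 11756490_a_at, differed by -0.14 and -0.17. *MBNL1* had 3 of 8 probe sets called, with differences of 1.16 to 1.49 with siTDRD9-1 and 1.02 to 1.29 with siTDRD9-2, and its brightest, 11748361_x_at, differed by -0.087 and -0.38. At an FDR of 0.01 without a fold limit, 16 of the 116 genes passed with both siRNAs in 1 direction, 12 up and 4 down (13.8%, and 3.73% of all genes), and 3 of the 52 members did (5.77%): *SF3B1*, *U2SURP* and *HNRNPU*. The 12 included the U2 genes *SF3B5*, *HTATSF1* and *RBM17*, the SR-related *SRRM1*, *SRRM2* and *SON*, and *CDC5L*, *SART3*, *RNPC3* and *RBM6*. The 4 lower ones were *LSM5*, *HNRNPA3*, *SYNCRIP* and *TARDBP*. None of these passed at the brightest probe set of its gene. Both lists were chosen with earlier results of these data known, so their counts are a description. Genes of both lists also had more probe sets each, on average, than all genes, which gives more chances of a call.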

How the data were processed

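The authors deposited log2 values, made from 9 PrimeView arrays with RMA in Affymetrix Expression Console, per the labels, which also name limma, without versions. RMA corrects background, gives all arrays 1 distribution and summarizes each probe set, so that global shifts are removed and the differences of dim probe sets are compressed. These log2 values were used as deposited. The labels' RNA isolation field names another cell line and their labelling field a whole-transcript kit, and the sample titles were followed.

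Of 49395 probe sets, 102 controls were left out of the tests, and 49293 were fitted in 1 limma model of 3 groups (limma 3.58.1, R 4.3.3) with empirical Bayes moderation. The p of each comparison was adjusted over all of them by the Benjamini-Hochberg method, and every adjusted p in the text is from limma. A probe set passed at an FDR under 0.01 and was called at 2-fold as well, as in the study's methods, and a gene was called where both siRNAs gave a call of the same sign at 1 such probe set of it. The fit was tested on simulated data. Genes were assigned from the platform annotation, which needed 0 updated symbols.

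The members and all lists were chosen with earlier results of these data known. Values for every culture are given for *SF3B1* and *U2SURP*, for members that passed and changed at least 1.5-fold with both siRNAs, for members that differed between siRNAs, and for the largest mean difference at the brightest probe set in each class. Those of other members past 0.01 with 1 siRNA, and of *BCLAF1*, were added after their values were seen. Alternatives were arrays left out in turn, cyclic loess, median centring, array weights, a mean-variance trend, replicate numbers as a block, a fit of only the 2 groups compared, removal of dim probe sets (log2 limit of 5), an FDR of 0.05 with 1.5-fold, and genes as the mean over their probe sets. The comparison with the brightest probe set was added later. No probe sequences were used here. The number of arrays limits the precision.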

Additional observations from a re-analysis of the deposited data

Results flagged for a closer look

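*SRSF4* differed between the siRNAs against the same siControl cultures, by 0.47 on the log2 scale at 11717838_a_at (siTDRD9-2 minus siTDRD9-1, limma adjusted p = 0.00913), with every siTDRD9-2 culture above and every siTDRD9-1 culture below the 3 siControl cultures. The 3 siControl values lay within 8.65 and 8.66.

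A probe set that names both *ECH1* and *HNRNPL*, 11757030_at, was outside the counts because of its 2 genes. It gave 10.78, 10.73 and 10.75 with siTDRD9-1, 10.87, 10.95 and 10.94 with siTDRD9-2, and 10.57, 10.32 and 10.39 with siControl, and was 0.50 higher with siTDRD9-2 (adjusted p = 0.0046) and 0.33 higher with siTDRD9-1 (adjusted p = 0.0371). The brightest probe set of *HNRNPL* alone differed by -0.22 with siTDRD9-2, and which of both genes gave the signal cannot be told.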

How the results depend on the processing

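The numbers of member probe sets past an FDR of 0.01 (7 with siTDRD9-1, 15 with siTDRD9-2 and 1 between the siRNAs) moved with the fit. With a variance trend they were 19 with siTDRD9-1 and 2 between the siRNAs, with array weights 46, 28 and 11, and without dim probe sets 14 with siTDRD9-1 and 2 between. Cyclic loess gave 2 between the siRNAs. The fit of the 2 groups compared gave 9 with siTDRD9-2 and 0 between. With each array left out they ranged over 4 to 9, 6 to 14 and 0 to 0. The lowest counts, 4 with siTDRD9-1 and 6 with siTDRD9-2, came without siTDRD9-1 replicate 1 or siControl replicate 2, and without siTDRD9-2 replicate 2, siControl replicate 2 or siControl replicate 3. Called at 2-fold, 3 and 4 became 6 and 9 at an FDR of 0.05 and 1.5-fold, with 4 genes called with both siRNAs in place of 2, *HNRNPU* and *SRSF11* being added. With each array left out the called probe sets were 1 to 4 and 3 to 6 (1 with siTDRD9-1 without siControl replicate 3), and 0 to 0 between the siRNAs, and the genes 1 to 3.

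The median over member genes, -0.072 with siTDRD9-1 and -0.011 with siTDRD9-2, was -0.103 and -0.0187 after median centring, -0.0210 and -0.00255 after cyclic loess, and -0.0575 and 0.0146 with genes taken as the mean over their probe sets. It was -0.00218 with siTDRD9-2 under array weights, and ranged over -0.105 to -0.0648 and -0.0375 to 0.0356 with each array left out, so the siTDRD9-2 median has no settled sign. Differences from the brightest probe set numbered 4 and 8, and 2 and 0 in the fit of the 2 groups compared, 9 and 17 with array weights, and 0 to 6 and 0 to 8 with each array left out. The cause was not tested for any of these.

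Deviations of same-numbered cultures of different groups correlated at -0.15 to 0.15, and those of differently numbered cultures at -0.255 to 0.169. The ranges overlap and rest on few arrays per group, so they cannot show whether the numbers pair the samples. The paper describes independent transfection experiments, and whether the replicate numbers mark these experiments is not stated. With the replicate block, 0 probe sets passed between the siRNAs, and 2 and 2 differed from the brightest.

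The rises of *SF3B1* (both probe sets), *U2SURP* 11747164_a_at with both siRNAs, *PRPF4* with siTDRD9-2, and the falls of *SF3A3* with siTDRD9-1 and *SRSF1* 11758600_s_at with siTDRD9-2 passed 0.01 under all 16 alternatives. The rise of *SRSF11* 11761781_a_at with siTDRD9-2 passed too, but the removal of dim probe sets is no check of it, since it was kept through the siTDRD9 groups, with means of 5.04 and 5.46, against 4.11 with siControl. Those of *PRPF3*, *SNRPD1*, *SRSF6*, *SRSF4* and *U2SURP* 11747485_a_at did not in the fit of the 2 groups compared (adjusted p = 0.0211, 0.0181, 0.0137, 0.0365 and 0.0121). *SF3B3* and *SRSF1* 11743269_a_at had 0.0102 and 0.0101 there. *HNRNPU* reached adjusted p of up to 0.0236 with siTDRD9-1 and 0.0127 with siTDRD9-2, *PRPF6* 0.0132, *SF3B3* 0.0186, *SRSF1* 11727813_a_at 0.0127, *SRSF11* 11763263_at 0.02 and *HNRNPA1* 0.0426 with 1 array left out. Values near 0 at the brightest probe set changed sign: *SF3B1* with siTDRD9-1 was -0.042 with array weights, -0.026 after median centring and between -0.058 and 0.041 with 1 array left out. *U2SURP* with siTDRD9-1 was -0.0063 after median centring and between -0.050 and 0.12 with 1 array left out, and with siTDRD9-2 between -0.027 and 0.14. *HNRNPU* with siTDRD9-2 was 0.0024 with array weights and between -0.11 and 0.094 with 1 array left out, and *SF3B3* with siTDRD9-2 between -0.031 and 0.13.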
